A study of Mus musculus and Macaca mulatta with 39 samples.

Results

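The Fgf3 to Ccnd1 window is the stretch chr7:151940000-152180000 of the mouse genome (mm9), 240 kb long, which holds the genes Fgf3, Fgf4, Fgf15 and Ccnd1. Its members were the H3K27ac and H3K4me2 regions called there in embryonic mouse cortex, 168 of the 921935 regions in 16 mouse lists and of 1556996 regions in the 26 lists of the whole series. The window was chosen from these data: it surrounds an H3K27ac locus at chr7:151967101-151972925 that was called at E11.5 and at no later stage. H3K27ac at E11.5 against later stages is therefore given here as values and counts, with no p and not as a test.

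ChIP-seq had been run on cortex of C57BL6J mice from timed pregnancies. The tissues were whole embryonic cortex at E11.5 and at E14.5 and the frontal and occipital cortex at E17.5, each with 2 biological replicates per mark. The labels name no mutant allele or treatment, and they do not give the number of embryos behind a replicate. Each of the 16 lists holds only positions of called regions, with no read number or score, so the depth is unknown and the measurement is the length of DNA called (covered bp). These are bulk tissues, in which fewer cells carrying a mark and less of the mark per cell cannot be told apart.

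H3K27ac is an acetylation of histone H3 found at active promoters and enhancers, while H3K4me2 marks promoters and enhancers more broadly, including ones without acetylation. Fgf3, Fgf4 and Fgf15 encode secreted fibroblast growth factors, ligands that act through FGF receptors and the MAP kinase pathway. Fgf15 is known for its expression in progenitors of the embryonic neural tube and for promoting cortical neurogenesis, Fgf3 for its part in ear and hindbrain development and as an integration site of mouse mammary tumour virus, and Fgf4 for its roles in the early embryo and limb bud. Ccnd1 encodes cyclin D1, which activates cyclin-dependent kinases in the G1 phase and is abundant in cortical progenitors.

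In the RefSeq gene table for GRCm38.p6, the order of protein-coding genes with increasing coordinate is Ano1, Fgf3, Fgf4, Fgf15, LTO1, Ccnd1 and Tpcn2. The files use mm9, so positions of that table were not carried over and regions were set beside a gene only for Ccnd1, at about chr7:152116000-152126000. RefSeq promoters, from 250 bases before to 50 after the start site, were at hand for 2 of the 4 genes, Fgf3 and Fgf4. They are shown because CpG-rich promoters commonly carry H3K4 methylation, and they lie on the plus strand at chr7:144838362-144838661 for Fgf3 and chr7:144861136-144861435 for Fgf4 (GRCm38.p6). Capitals mark each CG dinucleotide.
Fgf3: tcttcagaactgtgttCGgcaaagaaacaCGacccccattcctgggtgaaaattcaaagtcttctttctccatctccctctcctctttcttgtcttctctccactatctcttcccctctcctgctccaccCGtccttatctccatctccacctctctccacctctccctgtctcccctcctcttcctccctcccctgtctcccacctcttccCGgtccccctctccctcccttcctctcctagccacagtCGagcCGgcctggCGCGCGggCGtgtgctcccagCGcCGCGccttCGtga
Fgf4: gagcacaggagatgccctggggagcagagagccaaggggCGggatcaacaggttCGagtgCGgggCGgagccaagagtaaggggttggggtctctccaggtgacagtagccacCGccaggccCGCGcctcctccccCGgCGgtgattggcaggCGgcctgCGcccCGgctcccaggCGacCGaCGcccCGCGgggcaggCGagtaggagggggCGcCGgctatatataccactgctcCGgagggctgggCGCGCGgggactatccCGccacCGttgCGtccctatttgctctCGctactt

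The Fgf4 promoter held 28 CG dinucleotides in its 300 bases at 69.7% GC, and the Fgf3 promoter 14 at 59.3% GC. The median of all 32851 mouse promoters in the table was 7, and Fgf4 exceeded 85.8% of them and Fgf3 63.7%. In Fgf3 the capitals gather at the end near the start site, whereas in Fgf4 they run through the whole sequence. The motif GGGCGG, bound by Sp1, was found in Fgf4 with its first base at positions -214 and -188 from the start site, and not in Fgf3. It occurred in 35.7% of promoters. TGACGTCA (CRE, in 1.79% of promoters), TGACTCA (AP-1, 5.20%), CACGTG (E-box, 7.15%) and CTTTGAT (TCF/LEF, 3.73%), all searched on both strands, were found in neither promoter.

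H3K27ac covered more of the window at E11.5 than at any later stage. The 2 E11.5 lists covered 46.1 and 35.1 kb, the E14.5 lists 29.95 and 20.25 kb, the frontal E17.5 lists 24.05 and 17.55 kb and the occipital E17.5 lists 18.975 and 17.45 kb. Both E11.5 lists lay above all 6 later lists, and the E14.5 and E17.5 values overlapped. Without the E11.5-only locus, covered length averaged 19.5 ± 3.11 kb at E17.5 (SD, n = 4) and 35.9 ± 6.26 kb at E11.5 (SD, n = 2), so E11.5 stayed the highest. The number of separate regions was 19 and 22 at E11.5, 14 and 14 at E14.5, 15 and 8 in frontal and 8 and 8 in occipital cortex at E17.5.

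The genome as a whole ran the other way in unscaled length. The median 240-kb stretch of the genome covered 9.725, 11.025, 10.75 and 8.65 kb in the E17.5 lists and 5.50 and 4.05 kb in the E11.5 lists. The E17.5 H3K27ac lists totalled 129 to 169 Mb and the E11.5 lists 63.1 and 85.3 Mb. On the log2(covered bp + 200) scale of limma, used below unless stated, the window without the E11.5-only locus differed by -0.87 ± 0.25 (SE) at E17.5 against E11.5, where the median stretch differed by 0.97. Of 9359 such stretches, 40.8% were called higher and 0.556% lower at E17.5 (adjusted p below 0.05). With covered length scaled to the list total, the median stretch differed by -0.03, 1762 stretches were higher and 1855 lower, and the window differed by -1.94, so that the window lay below the median stretch in both scalings. For E14.5 against E11.5 the window differed by -0.53 ± 0.29 (SE) and the median stretch by 0.54, with 10.8% of stretches called higher and 0.118% lower.

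**Figure D1:**
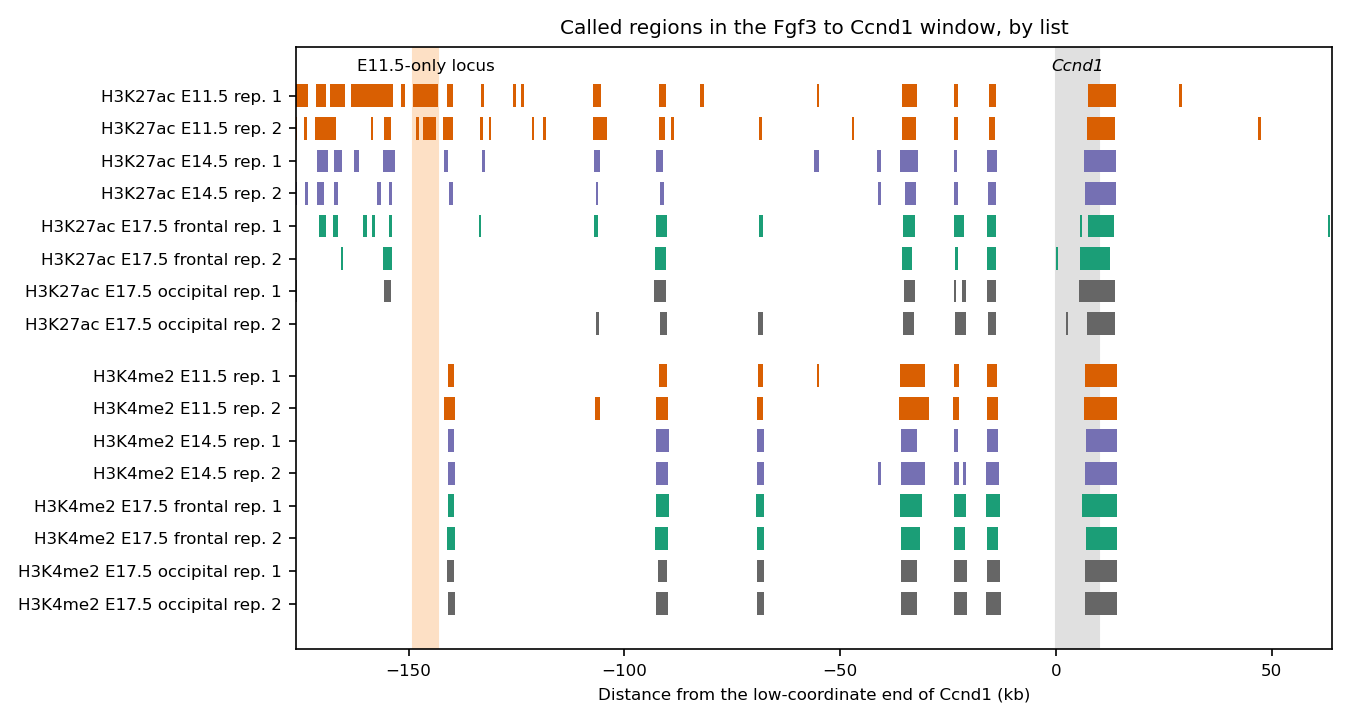
Called regions of the 240-kb window, one row per list, with H3K27ac above H3K4me2; the x axis is the distance in kb from the low-coordinate end of Ccnd1, and colours are the 4 tissues. The H3K27ac rows of E11.5 hold the longest region left of the shaded E11.5-only locus, 9750 bp in replicate 1, while the H3K4me2 rows share 7 loci in all 8 lists.

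H3K4me2 covered 21.6 and 26.15 kb at E11.5, 20.5 and 24.1 kb at E14.5, 25.35 and 23.15 kb in frontal and 22.5 and 23.55 kb in occipital cortex at E17.5, in unscaled length. The 3 stages overlapped. E17.5 averaged 23.6 ± 1.21 kb (SD, n = 4) and E11.5 23.9 ± 3.20 kb (SD, n = 2), a difference of -0.01 ± 0.18 (SE) with a limma adjusted p of 0.984. The median stretch of the genome changed by 0.38. E14.5 differed from E11.5 by -0.10 ± 0.21 (adjusted p = 1) and frontal from occipital cortex by 0.07 ± 0.21 (adjusted p = 0.854). In limma, 0 of 9188 stretches (0%) were called in each of these 3 H3K4me2 comparisons, while 1677, 225 and 609 had an unadjusted p below 0.05 for E17.5 against E11.5, E14.5 against E11.5 and frontal against occipital cortex. Scaled to the list total, the window differed by -0.39 (adjusted p = 0.191) at E17.5 against E11.5 and by 0.55 (adjusted p = 0.410) for frontal against occipital cortex, and 712 stretches were called higher and 397 lower at E17.5 against E11.5.

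Merging each mark's regions over its 8 lists gave 29 H3K27ac loci and 10 H3K4me2 loci. Of the H3K4me2 loci, 7 were called in all 8 lists and 3 in a single list, of E11.5 in 2 cases and of E14.5 in 1, at 550 to 1000 bp. Of the H3K27ac loci, 5 were called in all 8 lists, 10 in 2 to 7 lists and 14 in a single list. These 14 were 500 to 750 bp long, and 11 belonged to E11.5, 3 to E17.5 and 0 to E14.5.

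The 7 H3K4me2 loci of all lists were numbered 1 to 7 by increasing coordinate. They divide the H3K27ac values, in unscaled length, into a steady and a varying share, a division made after the values were seen. Inside them, H3K27ac covered 15.625 and 16.025 kb at E11.5, 17.175 and 14.3 kb at E14.5, 16.7 and 13.925 kb in frontal and 16.025 and 16.325 kb in occipital cortex at E17.5. Those ranges overlapped between stages. Outside the 7 loci H3K27ac covered, unscaled, 30.5 and 19.1 kb at E11.5, 12.8 and 5.95 kb at E14.5, 7.35 and 3.63 kb in frontal and 2.95 and 1.13 kb in occipital cortex at E17.5. The E11.5 values outside lay above every later list. They include 5825 and 3675 bp of the E11.5-only locus, which was chosen for being called at E11.5 and not later. Without that locus they stayed above every later list. Of the 22 H3K27ac loci outside, 18, with the E11.5-only locus among them, were called in an E11.5 list. In an E14.5 list 7 were called, in an E17.5 list 8, and in no E11.5 list 4.

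**Figure D2:**
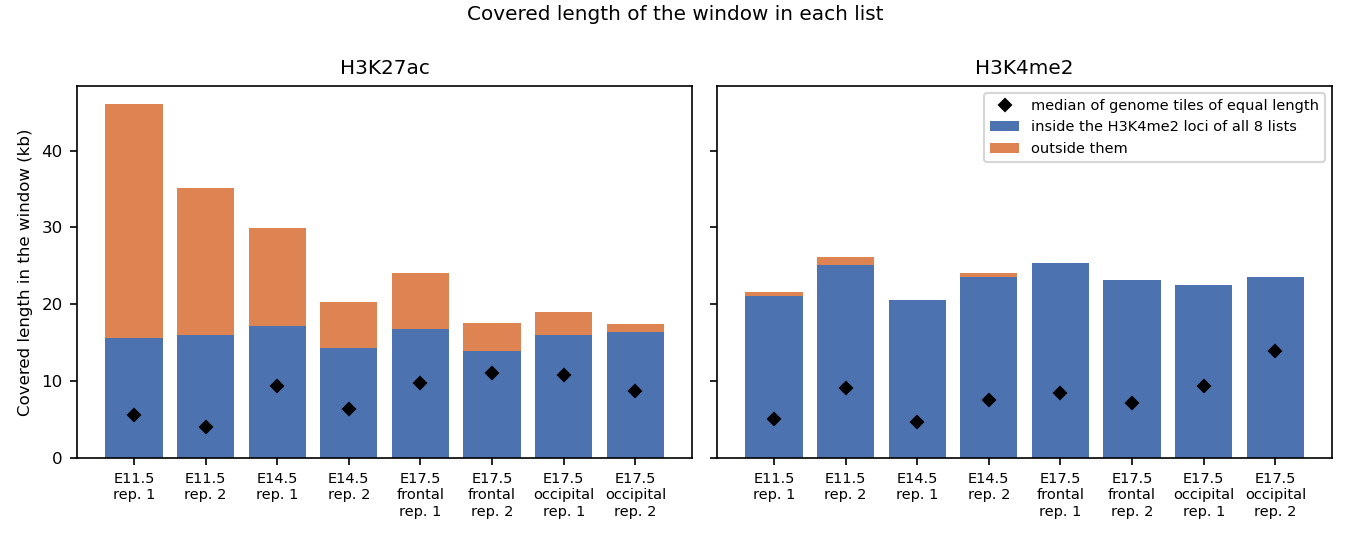
Covered length of the window in kb for each list, H3K27ac left and H3K4me2 right, split into the part inside the 7 H3K4me2 loci of all 8 lists and the part outside; diamonds are the median of genome stretches of equal length. In unscaled length the inside part of H3K27ac stays between 13.9 and 17.2 kb. The outside part, which includes the E11.5-only locus, is 30.5 and 19.1 kb at E11.5 and at most 12.8 kb in later lists.

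The E11.5-only H3K27ac locus, chr7:151967101-151972925, covered 5825 bp in 1 unbroken region in E11.5 replicate 1 and 3675 bp in 2 regions in replicate 2, and 0 bp in the 6 later lists. It ends 143 kb below the low-coordinate end of Ccnd1. These H3K27ac values chose the locus. H3K4me2, which did not, had no region there in any of its 8 lists, and the nearest one lay 1275 to 2275 bp away, always at H3K4me2 locus 1. The same pattern, H3K27ac in the 2 E11.5 lists and in none of the 6 later lists, was shared by 769 mouse loci. Their median covered length was 787.5 bp, and this locus, at a mean of 4750 ± 1520 bp (SD, n = 2), was the longest of them. No H3K4me2 region in any list touched 499 of the 769 (64.9%). The absence of a called H3K4me2 region was thus the commoner state among loci with this pattern, most of them far shorter than this one.

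The 5 H3K27ac loci elsewhere in the mouse genome with the most similar pattern, by Euclidean distance over the 8 log2(covered bp + 200) values, were at distances of 0.884 to 0.993. They were chr2:172860626-172864075, chr9:21938776-21942775, chr11:87562026-87565325, chr11:102222751-102228075 and chr13:73610876-73614475. Each had 0 bp of H3K27ac after E11.5. The nearest, on chromosome 2, covered 3075 and 3450 bp at E11.5 and had no H3K4me2 region in any list, as at the window's own locus. The other loci had an H3K4me2 region in 1 or 2 of 8 lists. The E11.5 lists covered 825 and 1425 bp on chromosome 9 and 475 and 875 bp at chr11:87562026-87565325. At chr11:102222751-102228075 only E11.5 replicate 2 had H3K4me2, at 500 bp. On chromosome 13 only E17.5 occipital replicate 2 had it, at 100 bp.

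Below the E11.5-only locus lay 3 broad H3K27ac loci, in a stretch where the window held no H3K4me2 region. The locus chr7:151936301-151942775, which crosses the lower edge of the window, covered 6475 and 1200 bp at E11.5, 500 and 1300 bp at E14.5, 575 and 0 bp in frontal and 975 and 0 bp in occipital cortex at E17.5. Both E11.5 lists exceeded the 4 E17.5 lists, and E11.5 replicate 2 was within the range of the E14.5 lists. The locus chr7:151944301-151951175 covered 5700 and 4950 bp at E11.5, 4375 and 2450 bp at E14.5, 2725 and 525 bp in frontal and 0 and 0 bp in occipital cortex at E17.5. Here the lowest E11.5 list exceeded every later list, and no occipital list had a region. The locus chr7:151952576-151962950 covered 9750 and 2075 bp at E11.5, 3975 and 1625 bp at E14.5, 2025 and 1925 bp in frontal and 1625 and 0 bp in occipital cortex at E17.5. Both E11.5 lists exceeded the 4 E17.5 lists, and E11.5 replicate 2 was within the range of the E14.5 lists.

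Between the E11.5-only locus and H3K4me2 locus 2 were 3 more H3K27ac loci called in at least 4 lists. At H3K4me2 locus 1, chr7:151974201-151976725, H3K27ac covered 1425 and 2500 bp at E11.5, 775 and 950 bp at E14.5 and 0 bp in all 4 E17.5 lists. H3K4me2 covered 1425 and 2525 bp there at E11.5, 1450 and 1650 bp at E14.5, 1450 and 1750 bp in frontal and 1700 and 1625 bp in occipital cortex at E17.5. H3K4me2 thus stayed called at the stage where no H3K27ac region was, and it differed by -0.20 ± 0.23 (SE) at E17.5 against E11.5 (limma adjusted p = 0.587). The H3K27ac locus chr7:151982327-151983675 covered 825 and 800 bp at E11.5, 775 and 0 bp at E14.5, 500 and 0 bp in frontal and 0 and 0 bp in occipital cortex. The locus chr7:152008851-152012075 covered 1650 and 3225 bp at E11.5, 1400 and 500 bp at E14.5, 950 and 0 bp in frontal and 0 and 625 bp in occipital cortex. At both, each E11.5 list was above every later list. A 1000-bp H3K4me2 region lay within chr7:152008851-152012075 in E11.5 replicate 2 alone.

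H3K4me2 locus 5, chr7:152092276-152095425, was the one locus of the window whose H3K4me2 passed the test in unscaled length, and it rose. It covered 1175 and 1375 bp at E11.5, 1000 and 1775 bp at E14.5, 2925 and 2600 bp in frontal and 3025 and 3100 bp in occipital cortex at E17.5. All 4 E17.5 lists exceeded the earlier 4. The change at E17.5 against E11.5 was 1.08 ± 0.22 (SE, limma adjusted p = 0.0189), higher in 4 of 4 lists, and 0.70 above the median change of 0.37 over all loci. On simulated data this locus fit made more false calls than its threshold allows, so that adjusted p is too small. The added length was on the high-coordinate side, where the last base moved to between 152095000 and 152095425 in the E17.5 lists, against 152093475 and 152093650 in the E11.5 lists. At E14.5, replicate 2 held a second region reaching 152095150 and replicate 1 did not. H3K27ac at this locus covered 950 and 775 bp at E11.5, 700 and 800 bp at E14.5, 2275 and 750 bp in frontal and 1425 and 2475 bp in occipital cortex. Leaving out either E11.5 list or any 1 of the 4 E17.5 lists ended the call, at adjusted p-values of 0.0520 to 0.123, while the change stayed between 0.98 and 1.18. It held without either E14.5 list.

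In all, 1 of the 7 H3K4me2 loci was called higher and 0 lower at E17.5 against E11.5, where 19.5% of 63453 loci in the genome were called higher and 3.13% lower. The members' median change was 0.25, beside 0.37 over all loci. For E14.5 against E11.5, limma called 0 of the 7 loci, with the smallest adjusted p at 0.695 and 0 loci at an unadjusted p below 0.05, beside 3.94% called in the genome. For frontal against occipital cortex 0 of 7 were called, with the smallest adjusted p at 0.572 and 0 loci at an unadjusted p below 0.05, beside 9.93% in the genome. That genome share rested on both occipital lists, since leaving out either one gave 0 called loci, with 6467 and 3045 at an unadjusted p below 0.05 without replicate 1 and replicate 2.

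H3K4me2 locus 4, chr7:152079751-152086550, went the other way in value. It covered 5775 and 6800 bp at E11.5, 3700 and 5525 bp at E14.5, 5075 and 4450 bp in frontal and 3750 and 3800 bp in occipital cortex at E17.5. All E17.5 lists were below both E11.5 lists, yet the change of -0.54 ± 0.17 (SE) did not pass in unscaled length (limma adjusted p = 0.0810). With covered length scaled to the list total it passed (limma adjusted p = 0.0194). Leaving out either E14.5 list brought it past the threshold, at adjusted p-values of 0.0233 and 0.0220. Here too the high-coordinate edge moved. The last base was 152085025, 152084525, 152083825 and 152083850 in the E17.5 lists and 152085575 and 152086550 in the E11.5 lists. H3K27ac covered 3450 and 3075 bp at E11.5, 4250 and 2625 bp at E14.5, 2725 and 2225 bp in frontal and 2600 and 2675 bp in occipital cortex. Its E17.5 lists were likewise below both E11.5 lists, and the E14.5 lists spanned both.

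H3K4me2 loci 2, 3 and 6 did not pass the test in any comparison. Locus 2, chr7:152023151-152026401, covered 1900 and 2600 bp at E11.5, 3050 and 2725 bp at E14.5, 3025 and 3025 bp in frontal and 2100 and 2725 bp in occipital cortex, with H3K27ac at 1600 and 1325, 1725 and 950, 2575 and 2550, and 2825 and 1650 bp in the same order. Both marks were called there in all 8 lists. Locus 3, chr7:152046601-152048450, covered 1275 and 1425 bp in H3K4me2 at E11.5, 1600 and 1675 bp at E14.5, 1850 and 1525 bp in frontal and 1625 and 1600 bp in occipital cortex. Both E11.5 lists were below every later list in unscaled length. H3K27ac was called there in only 3 lists, at 750 bp in E11.5 replicate 2, 1025 bp in frontal replicate 1 and 1175 bp in occipital replicate 2, so that replicates of the same tissue differed at 3 of 4 tissues. Locus 6, chr7:152099851-152103225, had both marks in every list. H3K4me2 covered 2250 and 2650 bp at E11.5, 2600 and 2800 bp at E14.5, 3075 and 2625 bp in frontal and 2975 and 3375 bp in occipital cortex. H3K27ac covered 1650 and 1425, 2375 and 1875, 2000 and 2050, and 1925 and 2025 bp in the same order. Both E11.5 lists of H3K27ac were below every later list in unscaled length.

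**Figure D3:**
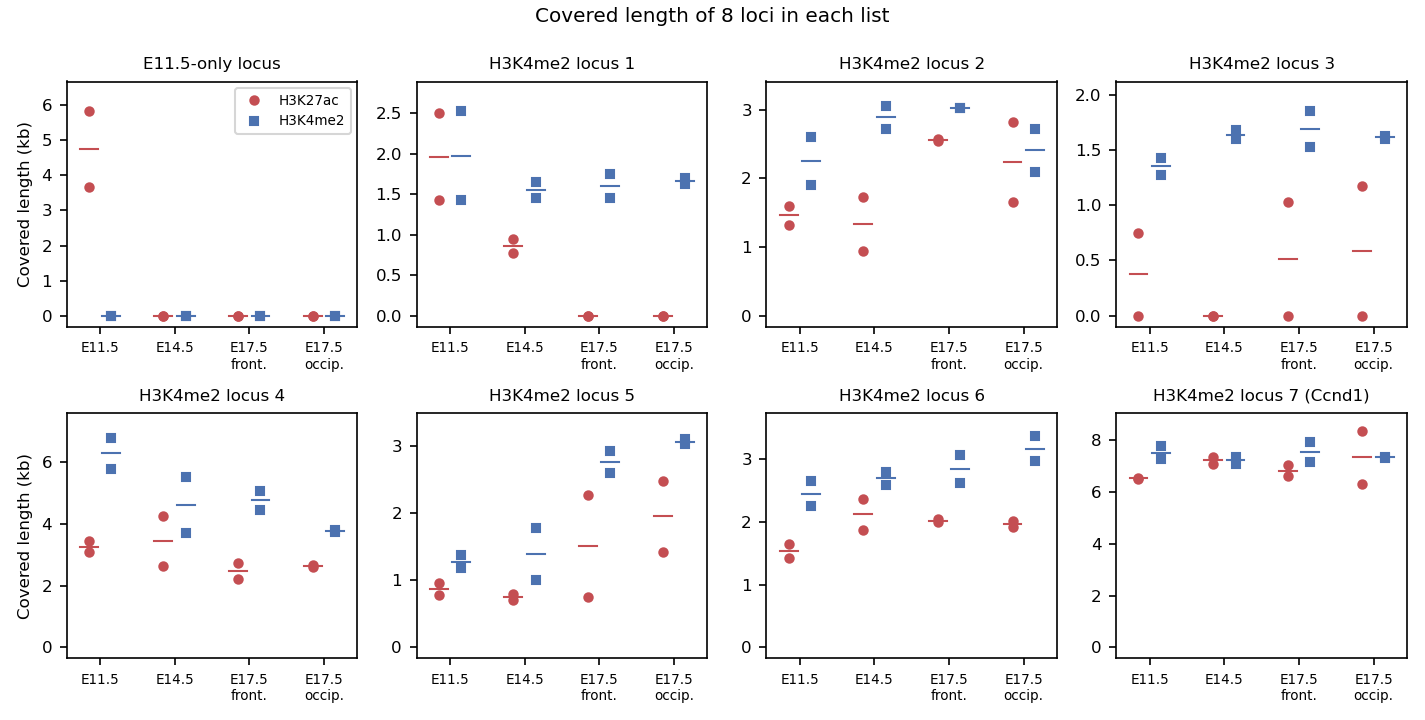
Covered length in kb of the E11.5-only locus and of H3K4me2 loci 1 to 7 in each list, by tissue from E11.5 to E17.5; circles are H3K27ac, squares H3K4me2 and bars the mean of 2 replicates. H3K27ac is at 0 kb at E17.5 at locus 1 while H3K4me2 remains called, and both marks stay above 6 kb in every list at locus 7.

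H3K4me2 locus 7, chr7:152122151-152130225, overlaps the high-coordinate end of Ccnd1, which is its 5′ end since the gene is transcribed toward lower coordinates. H3K4me2 covered 7275 and 7775 bp at E11.5, 7100 and 7350 bp at E14.5, 7950 and 7175 bp in frontal and 7350 and 7325 bp in occipital cortex at E17.5. H3K27ac covered 6550 and 6500 bp at E11.5, 7350 and 7100 bp at E14.5, 6625 and 7025 bp in frontal and 8375 and 6325 bp in occipital cortex, in the locus chr7:152121326-152129925. The stages overlapped for H3K4me2. For H3K27ac the E17.5 lists spanned the values of both earlier stages, and both E14.5 lists were above both E11.5 lists. H3K4me2 differed by -0.01 ± 0.07 (SE) at E17.5 against E11.5 (limma adjusted p = 0.908). H3K27ac differed by 0.11 ± 0.15 (SE), beside a median of 1.01 over all loci. In addition, 2 H3K27ac regions of 500 bp each touched the gene in 1 E17.5 list apiece, at chr7:152115951-152116450 in frontal replicate 2 and chr7:152118351-152118850 in occipital replicate 2.

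Of the 14 H3K27ac loci called in at least 2 lists, without the E11.5-only locus, the median difference at E17.5 against E11.5 was -0.65, beside 1.01 over all 85290 loci of the genome. In the genome 19% of loci were called and 1.46% were lower. By the limma threshold, given as a count and not as a test, 0 of the window's loci were higher and 2 lower. The 2 were chr7:151944301-151951175, at -3.35 ± 0.58 (SE), and chr7:151973876-151976375 on H3K4me2 locus 1, at -3.39 ± 0.46 (SE). The count was 1 without E11.5 replicate 1 and 0 without E11.5 replicate 2. For E14.5 against E11.5 the median was -0.41, beside 0.26 over all loci, with 1 locus higher and 0 lower, where the genome had 6.52% higher and 0.964% lower. That locus, chr7:152074626-152075575, covered 950 and 525 bp at E14.5 and 0 bp in the other 6 lists. It entered the fit only through the E14.5 lists in which it was called, so its call is no test. A 600-bp H3K4me2 region lay within it in E14.5 replicate 2 alone. The count was 0 without either E11.5 list or either E14.5 list. Nothing is read from these counts, because the window was chosen on this comparison. The remaining locus, chr7:152059851-152061200, covered 575 bp in E11.5 replicate 1 and 1300 bp in E14.5 replicate 1. A 550-bp H3K4me2 region lay within it in E11.5 replicate 1 alone.

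**Figure D4:**
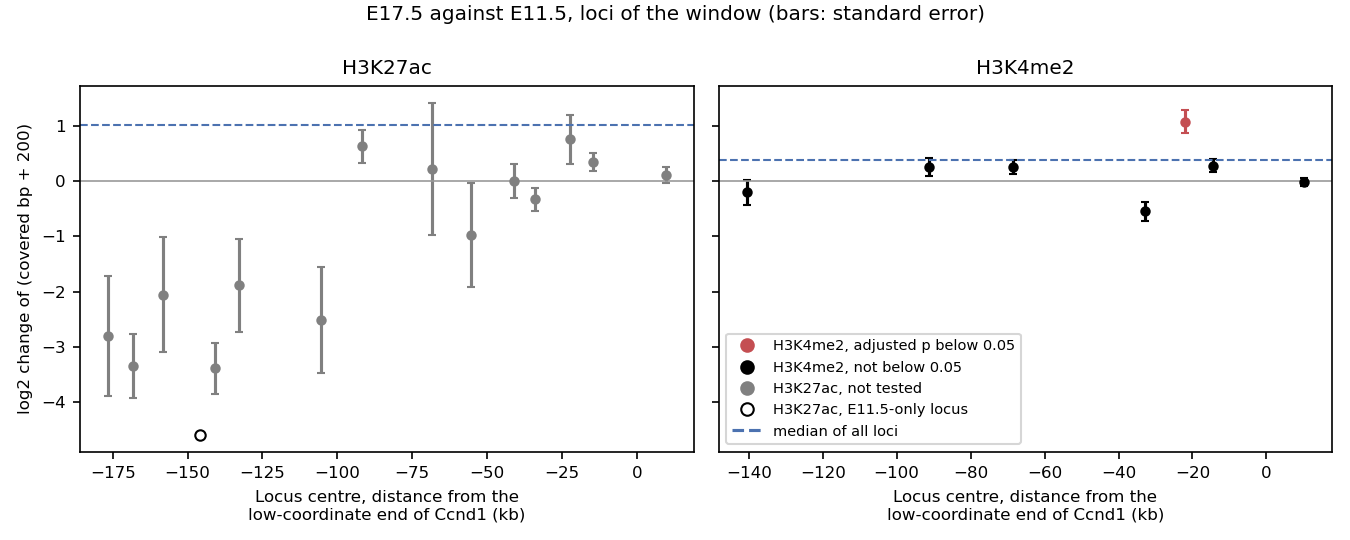
Change at E17.5 against E11.5 on the log2(covered bp + 200) scale for each locus called in at least 2 lists, H3K27ac left and H3K4me2 right, with standard errors, against the distance of the locus centre from the low-coordinate end of Ccnd1 in kb. H3K27ac values are lowest more than 100 kb below Ccnd1, and among the H3K4me2 loci locus 5 lies highest, at 1.08.

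Frontal and occipital cortex at E17.5, a comparison the choice of the window did not use, were not told apart by H3K27ac. The window covered 20.8 ± 4.60 kb in frontal and 18.2 ± 1.08 kb in occipital cortex (SD, n = 2 each), a difference of 0.17 ± 0.29 (SE, limma adjusted p = 1). In limma, 0 of 9359 stretches (0%) were called for this comparison, and 96 had an unadjusted p below 0.05. Loci with 0 bp in every E17.5 list could not differ in this comparison. They were the E11.5-only locus, whose choice required it, chr7:151973876-151976375, chr7:152059851-152061200 and chr7:152074626-152075575. Of the 15 loci of the window, these included, 0 were called, 1 had an unadjusted p below 0.05 and the smallest adjusted p was 0.193, beside 2.31% called in the genome. That locus was chr7:151944301-151951175, whose 2725 and 525 bp in frontal and 0 and 0 bp in occipital cortex gave a difference of 2.86 ± 0.67 (SE). The genome share depended on the setting and on each single list, those of E11.5 and E14.5 included. It was 0% with a pseudocount of 1000 bp, scaled to the list total, and with loci of at least 3 lists or of any list. With an equal number of regions 428 loci were called higher and 320 lower, and with regions merged up to 1000 bp apart 1304 and 539.

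The share of H3K27ac length also covered by H3K4me2 of the same tissue and replicate was 34.5% and 48.5% at E11.5, 51.2% and 73.1% at E14.5, 69.4% and 74.8% in frontal and 77.3% and 93.6% in occipital cortex at E17.5. The E17.5 shares exceeded both E11.5 shares. Over all regions of the genome the same shares were 41.2%, 41.4%, 48.2% and 70.0% in the 4 E17.5 pairs and 56.7% and 71.4% in the 2 E11.5 pairs. The window thus averaged 78.8 ± 10.4% at E17.5 (SD, n = 4) and 41.5 ± 9.91% at E11.5 (SD, n = 2), and the genome 50.2 ± 13.6% and 64.1 ± 10.4% at the same stages, values given with no test. The E11.5 lengths include the E11.5-only locus, and without it the E11.5 shares were 39.5% and 54.2%. The denominator of these shares is H3K27ac length, on which the window was chosen. Greater H3K27ac length at E11.5 outside H3K4me2 lowers the E11.5 shares by itself, so nothing is read from their difference to E17.5. Seen from H3K4me2, H3K27ac of the same pair covered 64.3 ± 5.36% of its length in the window at E17.5 (SD, n = 4) and 69.3 ± 5.95% at E11.5 (SD, n = 2). Over the genome it covered 66.2 ± 7.55% at E17.5 and 55.1 ± 20.8% at E11.5.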

How the data were processed

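The deposited files hold region positions in 3 columns, and covered length in bp is therefore the measurement. No signal comes with them. The submitters' processing notes name Bowtie 0.12.9, hg19 and mm9. The sources used here do not give the region caller. Starts lie on a 25-bp grid, and regions of a list are at least 1025 bp apart. Input samples and rhesus lists were not used here. With no mm9 annotation at hand, tissue markers and the planned list of FGF pathway genes were not analysed here.

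Regions of a mark were merged over its 8 lists into loci where they touched or overlapped. Loci in at least 2 lists, and 240-kb stretches tiling the genome from the window, were fitted on log2(covered bp + 200) in 1 model of the 4 tissues with limma 3.58.1 under R 4.3.3 (lmFit, then a trended eBayes), E17.5 being the mean of both areas. A call is an adjusted p below 0.05 (Benjamini-Hochberg over all loci or stretches). The 200 bp added makes changes of short loci smaller. On simulated data the locus fit made more false calls than its threshold allows, so its adjusted p-values are too small. Planned tests of H3K27ac against E11.5 are printed without p. Windows were clipped at their edges, whereas loci were counted whole.

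Values are printed by list for loci in at least 4 lists or called in any comparison, for the E11.5-only locus and for Ccnd1. The members and lists were chosen with earlier results of these data known. The settings also tried were the replicate block, a pseudocount of 1000 bp, at least 3 lists or any list, merging up to 1000 bp, scaling to the list total, an equal number of regions, and each list left out. Python 3.11.15, numpy 2.4.6, pandas 2.3.3 and matplotlib 3.10.9 were used.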

Additional observations from a re-analysis of the deposited data

How the results depend on the processing

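Read depth is unknown, and lists of unequal total length set what scaling does. With covered length scaled to the list total, the H3K27ac window differed by -1.94 at E17.5 against E11.5 (-0.87 unscaled), by -1.29 at E14.5 against E11.5 (-0.53 unscaled), neither read as a test since the window was chosen on this mark and stage, and by -0.014 for frontal against occipital cortex (0.17 unscaled), and the H3K4me2 window by -0.39 at E17.5 against E11.5 (-0.01 unscaled), 0.060 at E14.5 against E11.5 (-0.10 unscaled) and 0.55 for frontal against occipital cortex (0.07 unscaled). H3K27ac at E17.5 against E11.5 turned to -0.35 at H3K4me2 locus 2, -0.15 at locus 5, -0.63 at locus 6 and -0.94 at Ccnd1, and H3K4me2 to -0.094 at locus 2, -0.081 at locus 3 and -0.079 at locus 6. With an equal number of regions, H3K27ac at locus 5 was -0.56 and H3K4me2 at locus 3 -0.54. Over the genome, 47.9% of called H3K27ac loci were higher at E17.5 scaled, 78.4% with an equal number and 92.3% unscaled. For H3K4me2 the shares were 74.5%, 65.2% and 86.2%. At E17.5 against E11.5, 7 H3K27ac window loci were called lower scaled (genome 12375), beside 2 (1248). There were 4 (2397) with an equal number and 1 (1250) with regions merged up to 1000 bp apart. These counts are no test. H3K4me2 had 1 locus called higher and 1 lower, locus 4, when scaled, beside 1 higher and 0 lower. At E14.5 against E11.5 the H3K27ac count was 0, beside 1 higher, with a pseudocount of 1000 bp, the replicate block, at least 3 lists or any list. With an equal number of regions the 1 call was lower.

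H3K4me2 stretches called at E17.5 against E11.5, 0 unscaled, were 712 higher and 397 lower scaled, 440 and 144 with an equal number, and 95 and 0 with the replicate block. H3K27ac stretches at E14.5 against E11.5 were 391 higher and 95 lower scaled, with a median of -0.092, beside 1008 and 11. H3K4me2 loci called for frontal against occipital cortex were 0 with at least 3 lists (4977 at an unadjusted p below 0.05), beside 6299.

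Leaving out each list gave, at E17.5 against E11.5, -1.05 to -0.69 for the H3K27ac window and 0 to 2 called H3K27ac loci, and -0.15 to 0.13 for the H3K4me2 window and 0 to 2 called H3K4me2 loci. At E14.5 against E11.5 it gave 0 to 1 H3K27ac loci and -0.23 to 0.039 for the H3K4me2 window, and for frontal against occipital cortex -0.052 to 0.40 for the H3K27ac window. At E17.5 against E11.5, H3K4me2 ranged from -0.58 to 0.17 at locus 1 and from -0.061 to 0.032 at Ccnd1. Replicate numbers do not pair tissues in the labels, and deviations of same-numbered lists correlated at -0.204 to 0.242. The replicate block left the H3K27ac window at -0.87 and the rise of H3K4me2 locus 5 past the threshold. For frontal against occipital cortex limma called 0 of 85290 H3K27ac loci with the block (4574 at an unadjusted p below 0.05), 0 with the 2 occipital numbers crossed, added after seeing the data (4297), and 1967 without a block. The planned H3K4me2 tests at the E11.5-only locus could not be made, since no list had a region there. The cause was not tested for any of these.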
